A study of Mus musculus with 7 samples.

Results

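Neutrophils sorted from acetaminophen-injured livers were examined for 9 genes that handle iron and heme. The genes were taken by symbol from the deposited expression table and cover ferritin (Fth1 and Ftl1), heme breakdown (Hmox1 and Blvrb), iron transport (Slc40a1, Tfrc, Slc11a1 and Slc11a2) and iron sensing (Ireb2). All 9 were present among the 16047 genes of the table. The libraries came from male C57BL/6 mice with acetaminophen-induced liver injury (AILI), 4 of them given PBS and 3 given the anti-CCR2 antibody MC-21, which depletes Ly6Chi monocytes. Injections started 12 h before acetaminophen and were repeated every 24 h, and MC-21 was given as 400 µL of conditioned medium with 29 µg/mL of antibody. At 24 h after acetaminophen, 50000 cells per liver were sorted as CD11b+, Ly6G+, Ly6C low and CX3CR1-GFP negative. The sample labels give the strain as C57BL/6 and do not say whether these mice carried a Cx3cr1-GFP reporter allele. The PBS libraries carry mouse numbers 5 to 8 and the MC-21 libraries 2 to 4. There was no uninjured liver, and both groups received acetaminophen.

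Iron that enters a cell is either used, exported or stored in ferritin, a hollow shell built of heavy (Fth1) and light (Ftl1) chains. Heme, which phagocytes take up with red cells and dying cells, is opened by heme oxygenase 1 (Hmox1) into iron, carbon monoxide and biliverdin. Biliverdin reductase A (Blvra) turns this form of biliverdin into bilirubin, and biliverdin reductase B (Blvrb) mainly acts on other forms. Iron-regulatory proteins read the cell's free iron and bind a hairpin in the messages for ferritin, ferroportin (Slc40a1) and the transferrin receptor (Tfrc). Bound near the start of a message, they block its translation, and bound in its 3′ end they protect it from decay, so that the RNA level of ferritin says little of its protein level.

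The hairpins are shown because they are what 4 of the 9 genes share at the level of sequence. The search took CNNNNNCAGTGN on the coding strand of annotated messages, with the 5 bases before the loop pairing (G-T pairs allowed) with the 5 bases after it. Capitals mark the 6-base loop, and each run is written 5′ to 3′ from the mm9 transcripts with 5 bases kept on either side.
Fth1: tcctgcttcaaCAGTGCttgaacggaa
Ftl1: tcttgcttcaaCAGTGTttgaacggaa
Slc40a1: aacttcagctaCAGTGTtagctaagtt
Tfrc hairpin 1: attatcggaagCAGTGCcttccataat
Tfrc hairpin 2: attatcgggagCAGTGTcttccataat
Tfrc hairpin 3: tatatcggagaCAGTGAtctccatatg
Tfrc hairpin 4: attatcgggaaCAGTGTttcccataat

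In Fth1, Ftl1 and Slc40a1 the hairpin lies in the 5′ UTR, and in Tfrc the 4 hairpins lie in the 3′ UTR. Their positions in mm9 are chr19:10057223-10057249 (plus strand) for Fth1, chr7:52715150-52715176 (minus strand) for Ftl1 and chr1:45982311-45982337 (minus strand) for Slc40a1. The hairpins of Tfrc lie on the plus strand at chr16:32631306-32631332, chr16:32631685-32631711, chr16:32631750-32631776 and chr16:32631797-32631823. Over all genes with an annotated UTR, 33 of 19945 (0.166%) held such a form in a 5′ UTR and 125 of 20007 (0.625%) in a 3′ UTR. No match was found in the UTRs of the other 5 genes, which says only that this strict form is not in those annotated stretches.

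The values are RPKM, read numbers scaled to transcript length and to the mapped reads of the library. Low values fell on steps of single reads, from which the depth was read as between 1591607 reads (MC-21 replicate 3) and 3961519 reads (PBS replicate 8). In each library between 72.0% and 74.6% of the low values checked lay within 0.1 of a whole read. In a transcript of 1 kb, 1 RPKM was thus worth 1.59 to 3.96 reads. Reads of a 3′ library come from the ends of messages, so that division by length favours short transcripts when genes are set side by side.

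The difference of MC-21 from PBS neutrophils was taken in log2(RPKM + 1) with limma, over 9594 genes whose mean reached 1 RPKM. P-values were adjusted over these genes by Benjamini-Hochberg. A fold change on this scale understates the change of low genes. Across these genes the log2 difference had a median of -0.15, with 69.4% of the values below 0. For that reason, values with every library centred on its own median are given for several genes.

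The sorted cells carried neutrophil genes at high levels, with S100a9 between 12275 and 20590 RPKM in PBS and between 18142 and 25041 RPKM in MC-21 libraries. The 10 neutrophil markers summed to between 18062 and 30489 RPKM in PBS libraries and between 27376 and 40825 RPKM in MC-21 libraries, with a median log2 difference of 0.37. Of these 10, 6 were higher and 4 lower in MC-21 neutrophils. An unadjusted p under 0.05 (limma) was reached by 3 higher and 1 lower, beside 14.7% of all genes tested (11.2% lower). An adjusted p under 0.05 (limma) was reached by 0 of the 10. The 3 higher were S100a8, S100a9 and Retnlg (log2 differences 0.83, 0.46 and 0.83), the most abundant of the 10 and the bulk of the sums. Camp went the other way (log2 difference -1.89). The part of these marker differences in the differences of the iron and heme genes was not tested. Genes of other liver cells were present as well. The summed level of 14 monocyte and macrophage markers was between 476 and 578 RPKM in PBS libraries and between 212 and 277 RPKM in MC-21 libraries. Of the 13 of these tested, 12 were lower in MC-21 neutrophils, beside 69.4% of all genes tested. An adjusted p under 0.05 (limma) was reached by 7, beside 0.625% of all genes tested. Adgre1 was the 1 not lower (log2 difference 0.02). The groups overlapped for Ly6c2 (log2 difference -0.25, adjusted p = 0.577, limma). Ccr2, Ms4a7 and Mertk were at 0 in at least 1 library. The 8 Kupffer cell markers summed to between 63.0 and 91.7 RPKM and between 38.5 and 66.3 RPKM. Erythroid, hepatocyte and endothelial markers had sums that overlapped between the groups. Globin and other erythroid genes summed to between 484 and 1261 RPKM in PBS libraries and between 852 and 1263 RPKM in MC-21 libraries. That sum counts Hbb-b2 and Hbb-bt, whose values were identical in every library. Endothelial markers summed to between 1027 and 2320 RPKM in PBS and between 1176 and 2101 RPKM in MC-21 libraries, above the monocyte and macrophage sum in every library. In bulk samples, fewer cells of a type and less RNA per cell cannot be told apart.

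Of the 9 genes, 7 passed the filter on low values, and 0 of these 7 had an adjusted p under 0.05 (limma), where 0.625% of all genes tested did. An unadjusted p under 0.05 was reached by 2 of the 7, Hmox1 and Blvrb, both lower in MC-21 neutrophils, beside 14.7% of all genes tested (11.2% counting lower genes alone). The median log2 difference of the 7 genes was -0.15, the same as over all genes. Blvrb alone had groups that did not overlap, as 10.2% of all genes tested had with MC-21 neutrophils lower and 3.1% with MC-21 neutrophils higher. With 7 genes, these shares are set by 1 or 2 genes and are no result about the set.

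**Figure D1:**
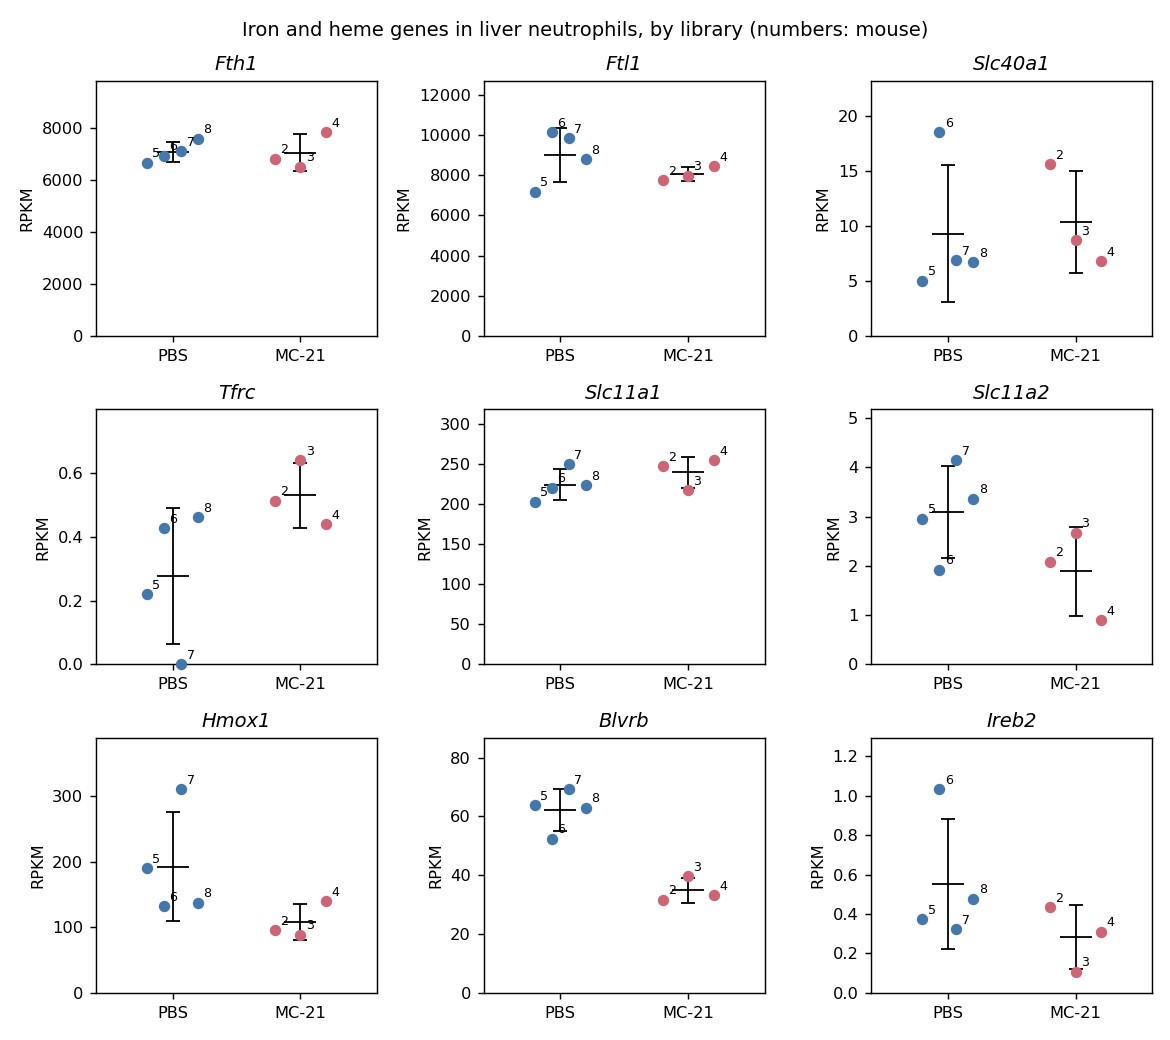
RPKM of the 9 genes in each library (points, numbered by mouse), with the group mean and SD (black bars) for 4 PBS and 3 MC-21 libraries; each panel has its own axis from 0. Blvrb is the gene whose groups stand apart, with 52.4 to 69.3 RPKM in PBS and 31.7 to 39.7 RPKM in MC-21 neutrophils, while the values of both ferritins overlap.

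Ferritin was among the most abundant messages of these neutrophils. By mean RPKM, Ftl1 ranked 3 and Fth1 ranked 5 of all genes in the table, and in single libraries Ftl1 ranked between 3 and 5 and Fth1 between 4 and 6. Together they took between 2.75% and 3.53% of the summed RPKM in PBS libraries and between 2.92% and 3.22% in MC-21 libraries.

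Fth1 (chr19:10057193-10059582), whose heavy chain oxidises iron for storage, had 6653, 6913, 7091 and 7568 RPKM in PBS replicates 5 to 8 and 6805, 6493 and 7829 RPKM in MC-21 replicates 2 to 4. The lowest and the highest value both belonged to MC-21 neutrophils. The log2 difference was -0.01 (standard error 0.11, 95% interval -0.26 to 0.25, adjusted p = 0.985 from limma). With centred libraries it was 0.16, which has the opposite sign.

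Ftl1 (chr7:52713314-52715254), whose light chain helps the iron core to form, had 7169, 10148, 9846 and 8788 RPKM in PBS replicates 5 to 8 and 7748, 7972 and 8451 RPKM in MC-21 replicates 2 to 4. The MC-21 values lay within the range of the PBS values. Its log2 difference was -0.15 (standard error 0.14, 95% interval -0.46 to 0.17, adjusted p = 0.667 from limma), and 0.018 with centred libraries. It was -0.25 without PBS replicate 5, -0.083 without PBS replicate 6 and -0.097 without PBS replicate 7, with adjusted p-values of 0.418, 0.822 and 0.823 (limma). The last 300 bases of the Ftl1 message have 6 near-identical copies elsewhere in mm9 (at least 95% identity over at least 100 bases, the closest at 99.0%), so that reads of Ftl1 and its copies may have been split or pooled. Fth1 had no such copy.

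The ratio of Ftl1 to Fth1 within a library does not depend on scaling. It was 1.08, 1.47, 1.39 and 1.16 in PBS replicates 5 to 8 and 1.14, 1.23 and 1.08 in MC-21 replicates 2 to 4, above 1 in all 7 libraries. The groups overlapped (exact permutation test, two-sided, of 35 splits, p = 0.343, where the smallest possible p is 0.0286).

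All 4 measured genes of heme breakdown (Hmox1, Hmox2, Blvra and Blvrb) had log2 differences below 0, as did 69.4% of all genes tested, and 0 of them had an adjusted p under 0.05 (limma). An unadjusted p under 0.05 was reached by Hmox1, Blvra and Blvrb, beside 14.7% of all genes, and with centred libraries by Blvrb alone. The groups overlapped for Hmox1 and Hmox2 and did not for Blvra and Blvrb, as for 10.2% of all genes tested with MC-21 neutrophils lower. The median log2 difference of the 4 genes was -0.65, beside -0.15 over all genes. With 4 genes, chosen with earlier results known, this median is no result about heme breakdown as a set. The summed level of the 4 genes was between 226 and 424 RPKM in PBS libraries and between 158 and 202 RPKM in MC-21 libraries. The largest part of each sum was Hmox1, whose own groups overlapped (132 to 311 RPKM in PBS and 88.9 to 139 RPKM in MC-21 libraries).

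Blvrb (chr7:28232997-28251163), biliverdin reductase B, which also acts as a flavin reductase, had 63.8, 52.4, 69.3 and 63.0 RPKM in PBS replicates 5 to 8 and 31.7, 39.7 and 33.1 RPKM in MC-21 replicates 2 to 4. Every MC-21 library was below every PBS library. The means were 62.1 ± 7.09 RPKM (SD, n = 4) and 34.8 ± 4.24 RPKM (SD, n = 3), and the exact permutation test gave p = 0.0286, the smallest possible. The log2 difference was -0.82 (standard error 0.15, 95% interval -1.16 to -0.47), 1.76-fold lower, with an adjusted p of 0.0572 from limma. Centred libraries gave -0.65 with an adjusted p of 0.114 (limma). Without PBS replicate 6 the difference was -0.89 with an adjusted p of 0.0434 (limma), and with the filter set at a mean of 5 RPKM the adjusted p was 0.047. Under the other alternatives it lay between 0.0631 and 0.188 (limma or an unmoderated test), so that 2 of 14 alternatives were under 0.05. The difference stayed between -0.91 and -0.65. The ratio of Blvrb to Fth1 within a library does not depend on scaling. It was between 0.00757 and 0.00978 in PBS and between 0.00423 and 0.00611 in MC-21 neutrophils, without overlap (exact permutation test, p = 0.0286). Fth1 hardly differed between the groups (log2 difference -0.01), so that this ratio restates the Blvrb difference and is no separate support. The ratio of Blvrb to Blvra was 2.19 to 3.03 in PBS and 2.11 to 2.45 in MC-21 libraries, with overlap (exact permutation test, p = 0.143).

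Hmox1 (chr8:77617490-77624495), the inducible heme oxygenase, had 190, 132, 311 and 137 RPKM in PBS replicates 5 to 8 and 95.2, 88.9 and 139 RPKM in MC-21 replicates 2 to 4. The groups overlapped, since MC-21 replicate 4 lay above PBS replicates 6 and 8, and PBS replicate 7 was the highest. The means were 192 ± 83.0 RPKM (SD, n = 4) and 108 ± 27.5 RPKM (SD, n = 3). The log2 difference was -0.77 (standard error 0.30, 95% interval -1.43 to -0.11, p = 0.0275, adjusted p = 0.285 from limma), and the exact permutation test gave p = 0.171. Centred libraries gave -0.61. Without PBS replicate 7 the difference was -0.51. Over the alternatives run, its adjusted p ranged from 0.2 to 0.506 (limma or an unmoderated test). Its unadjusted p was above 0.05 with centred libraries (0.0837, limma) and with the unmoderated test (0.0956). The same held without PBS replicate 5 (0.0524), MC-21 replicate 2 (0.0786) or MC-21 replicate 3 (0.0948, limma).

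Hmox2, the heme oxygenase that most cells express at a steady level, had between 15.6 and 29.2 RPKM in PBS and between 13.6 and 18.4 RPKM in MC-21 neutrophils, with a log2 difference of -0.26 (adjusted p = 0.647, limma). Blvra, the other biliverdin reductase, had 21.0, 23.9, 23.5 and 22.7 RPKM in PBS replicates 5 to 8 and 12.9, 17.7 and 15.7 RPKM in MC-21 replicates 2 to 4. As with Blvrb, the groups did not overlap, but the log2 difference of -0.54 had an adjusted p of 0.182 (limma, unadjusted p = 0.00714). With centred libraries it was -0.38 (unadjusted p = 0.0511).

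The monocyte and macrophage markers were lower in the same MC-21 libraries. PBS replicate 7, which held the most Hmox1 and Blvrb, also had the highest summed level of those markers, 578 RPKM. PBS replicate 5 had the lowest marker sum of its group, 476 RPKM, and the next highest Hmox1 and Blvrb. PBS replicate 6, at 512 RPKM, had the lowest Hmox1 and Blvrb of its group. PBS replicate 8, at 528 RPKM, had 137 RPKM of Hmox1 and 63.0 RPKM of Blvrb. MC-21 replicate 4 had the lowest marker sum, 212 RPKM, and the highest Hmox1 of its group. The marker sums did not overlap between the groups (476 to 578 RPKM in PBS and 212 to 277 RPKM in MC-21 libraries). The part of the marker genes in the differences of Hmox1 and Blvrb was not tested. Erythroid marker sums, globin genes among them, overlapped between the groups.

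**Figure D2:**
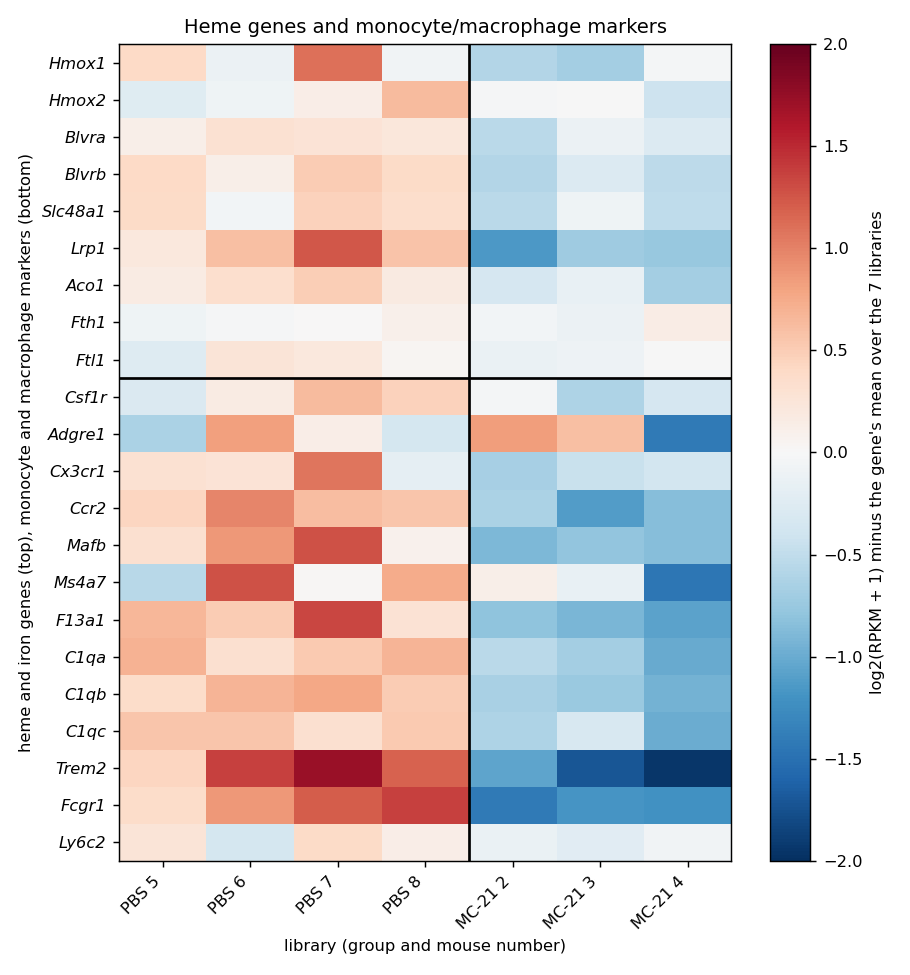
Heat map of log2(RPKM + 1) minus each gene's mean over the 7 libraries (colour, red above and blue below the mean) for 9 heme and iron genes (top) and 13 monocyte and macrophage markers (bottom), with PBS libraries left and MC-21 libraries right of the line. Blvrb, Blvra and Lrp1 are above their means in all 4 PBS libraries and below them in all 3 MC-21 libraries, as are markers such as C1qa and Trem2. Other markers, Adgre1 and Ly6c2 among them, do not show this pattern, and both ferritins stay near their means.

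Of the transport genes, 0 of the 3 tested had an adjusted p under 0.05 (limma). Slc11a1 (chr1:74421777-74432636), known as Nramp1, which pumps iron and manganese out of the phagosome, was the highest of them and ranked 336 by mean RPKM. It had 203, 220, 250 and 224 RPKM in PBS replicates 5 to 8 and 247, 217 and 255 RPKM in MC-21 replicates 2 to 4. The groups overlapped, and the log2 difference was 0.10 (standard error 0.13, 95% interval -0.19 to 0.38, adjusted p = 0.765 from limma), or 0.26 with centred libraries. The last 300 bases of its message have 3 partial copies elsewhere in mm9 (at least 100 bases, at most 95.2% identity), so that some reads may be shared. Slc11a1 and Hmox1, neighbours in the order of levels, had ranges that overlapped, since Hmox1 in PBS replicate 7 was above Slc11a1 in every library. Within a library, Slc11a1 was above Hmox1 in all but PBS replicate 7 (250 against 311 RPKM).

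Slc11a2 (chr15:100218329-100255503), or DMT1, which moves iron out of endosomes into the cytosol, was far lower, with the RPKM of Slc11a1 at least 60.4 times its own in every library. The longest transcripts have 2315 bases (Slc11a1) and 4415 bases (Slc11a2), so that division by length adds to this ratio in a 3′ library. Slc11a2 had 2.95, 1.92, 4.14 and 3.36 RPKM in PBS replicates 5 to 8 and 2.09, 2.68 and 0.893 RPKM in MC-21 replicates 2 to 4. PBS replicate 6 lay below MC-21 replicates 2 and 3, so that the groups overlapped. The log2 difference was -0.53 (standard error 0.29, 95% interval -1.17 to 0.12, adjusted p = 0.433 from limma), and it shrank to -0.25 without MC-21 replicate 4. A protein-coding gene on the other strand, Gm5475, overlaps the start of Slc11a2 in the annotation, and whether the counting used strand is not given in the sources used here.

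Slc40a1 (chr1:45964915-45982439), ferroportin, the only known exporter of iron from mammalian cells, had 5.03, 18.6, 6.90 and 6.72 RPKM in PBS replicates 5 to 8 and 15.7, 8.74 and 6.81 RPKM in MC-21 replicates 2 to 4. A single library of each group stood well above the others, PBS replicate 6 and MC-21 replicate 2. The log2 difference was 0.23 (standard error 0.41, 95% interval -0.68 to 1.14, adjusted p = 0.823 from limma). It was 0.59 without PBS replicate 6 and -0.079 without MC-21 replicate 2, so that single libraries set its size and its sign. Hamp, the gene of hepcidin, the liver hormone that removes ferroportin from the cell surface, had between 1.85 and 6.24 RPKM in PBS and between 4.43 and 7.74 RPKM in MC-21 libraries.

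Tfrc (chr16:32609006-32632880), the receptor that takes up transferrin-bound iron, was at the limit of detection and under the filter. It had 0.221, 0.428, 0 and 0.462 RPKM in PBS replicates 5 to 8, which stand for about 3, 7, 0 and 9 reads over its transcript of 4890 bases. The MC-21 values were 0.513, 0.639 and 0.439 RPKM, about 9, 5 and 6 reads. The absence of reads in PBS replicate 7 allows a level of up to 0.231 RPKM (3 reads), counting error only. The groups overlapped, and no test was made at this depth, apart from the fit without a filter, in which the log2 difference was 0.27 (adjusted p = 0.53, limma).

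Ireb2 (chr9:54711562-54760341) encodes iron-regulatory protein 2, which binds the hairpins shown above when iron is scarce. It was also under the filter, with 0.374, 1.03, 0.324 and 0.478 RPKM in PBS replicates 5 to 8 (6, 20, 5 and 11 reads over 5808 bases) and 0.434, 0.108 and 0.310 RPKM in MC-21 replicates 2 to 4 (9, 1 and 5 reads). PBS replicate 6 was the highest and the rest overlapped. Without a filter its log2 difference was -0.26 (adjusted p = 0.619, limma). Tfrc and Ireb2, lowest in the order of levels, overlapped with each other.

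Aco1, whose protein serves as iron-regulatory protein 1 when it loses its iron-sulfur cluster, was higher than Ireb2 in every library. It had 5.86, 6.74, 7.57 and 5.90 RPKM in PBS replicates 5 to 8 and 3.82, 4.51 and 2.83 RPKM in MC-21 replicates 2 to 4. Every MC-21 library was below every PBS library, with a log2 difference of -0.68 (standard error 0.19, 95% interval -1.12 to -0.24, adjusted p = 0.177 from limma). Fbxl5, which marks iron-regulatory protein 2 for degradation when iron is plentiful, had groups that overlapped (log2 difference -0.52, adjusted p = 0.55).

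A list of 59 genes of iron and heme biology, the 9 genes included, was used to place them. Of these 59 genes, 56 were in the table and 44 were tested. An adjusted p under 0.05 (limma) was reached by 1 gene, which was lower (0.625% of all genes tested reached it), and an unadjusted p under 0.05 by 6 lower genes and 1 higher gene (14.7% of all genes, 11.2% lower). Among the 44 genes the groups did not overlap with MC-21 neutrophils lower in 5 and higher in 1, beside 10.2% and 3.1% of all genes. Of the genes under the filter, Ncoa4, which brings ferritin to the lysosome, had 0.722 to 2.24 RPKM in PBS and 0.300 to 0.668 RPKM in MC-21 neutrophils, and Steap3, an iron reductase of endosomes, had 0.0945 to 0.318 RPKM in PBS libraries and was at 0 in the MC-21 libraries; neither was tested. The median log2 difference was -0.15, with 30 genes lower and 14 higher, so that the list as a whole lay where all genes lay. Those past the unadjusted threshold beside Hmox1, Blvrb, Blvra and Aco1 were Lrp1, Slc48a1 and Iscu.

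Lrp1, the receptor that takes up heme bound to hemopexin among many other ligands, was the gene with an adjusted p under 0.05. It fell by 1.53 on the log2 scale (standard error 0.26, adjusted p = 0.0412 from limma). Over the alternatives its adjusted p ranged from 0.0354 to 0.22, and it was above 0.05 without PBS replicates 6, 7 or 8 (0.0562, 0.0651 and 0.129) and without MC-21 replicates 2, 3 or 4 (0.118, 0.0888 and 0.106). It was also above 0.05 with centred libraries (0.0541, log2 difference -1.37), with quantile normalization (0.0663), without a filter (0.15) and with an unmoderated test (0.22).

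Slc48a1, which carries heme out of the phagolysosome, had 23.5, 17.1, 25.0 and 22.9 RPKM in PBS replicates 5 to 8 and 12.0, 16.7 and 12.2 RPKM in MC-21 replicates 2 to 4. The groups did not overlap by a narrow margin, and the log2 difference was -0.66 (standard error 0.19, adjusted p = 0.177 from limma). Iscu, the scaffold on which iron-sulfur clusters are built, was the gene higher in MC-21 neutrophils, with 133, 114, 122.5 and 116 RPKM in PBS replicates 5 to 8 and 164, 164 and 144 RPKM in MC-21 replicates 2 to 4. Its groups did not overlap, and the log2 difference was 0.38 (standard error 0.13, adjusted p = 0.237 from limma).

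In the other groups of the list no gene passed the unadjusted threshold. This held for 8 heme synthesis genes (median log2 difference -0.16), led in level by Alas1, the first enzyme of the pathway, with a log2 difference of 0.31 (adjusted p = 0.49). It held for the 4 storage genes, for the 6 import and reduction genes, for Slc40a1 and Hamp, for the granule and plasma proteins Lcn2, Ltf and Trf, and for the 5 heme-responsive transcription factors. Lcn2, which binds the iron carriers of bacteria, was the most abundant of these and had a log2 difference of 0.45 (95% interval -0.27 to 1.18, adjusted p = 0.55). Nfe2l2 (NRF2) and Bach1, which drive and repress Hmox1 and ferritin genes, had log2 differences of -0.08 and 0.11 (adjusted p of 0.87 and 0.88). Hp, which binds free hemoglobin, had a log2 difference of 0.11 (adjusted p = 0.74).

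**Figure D3:**
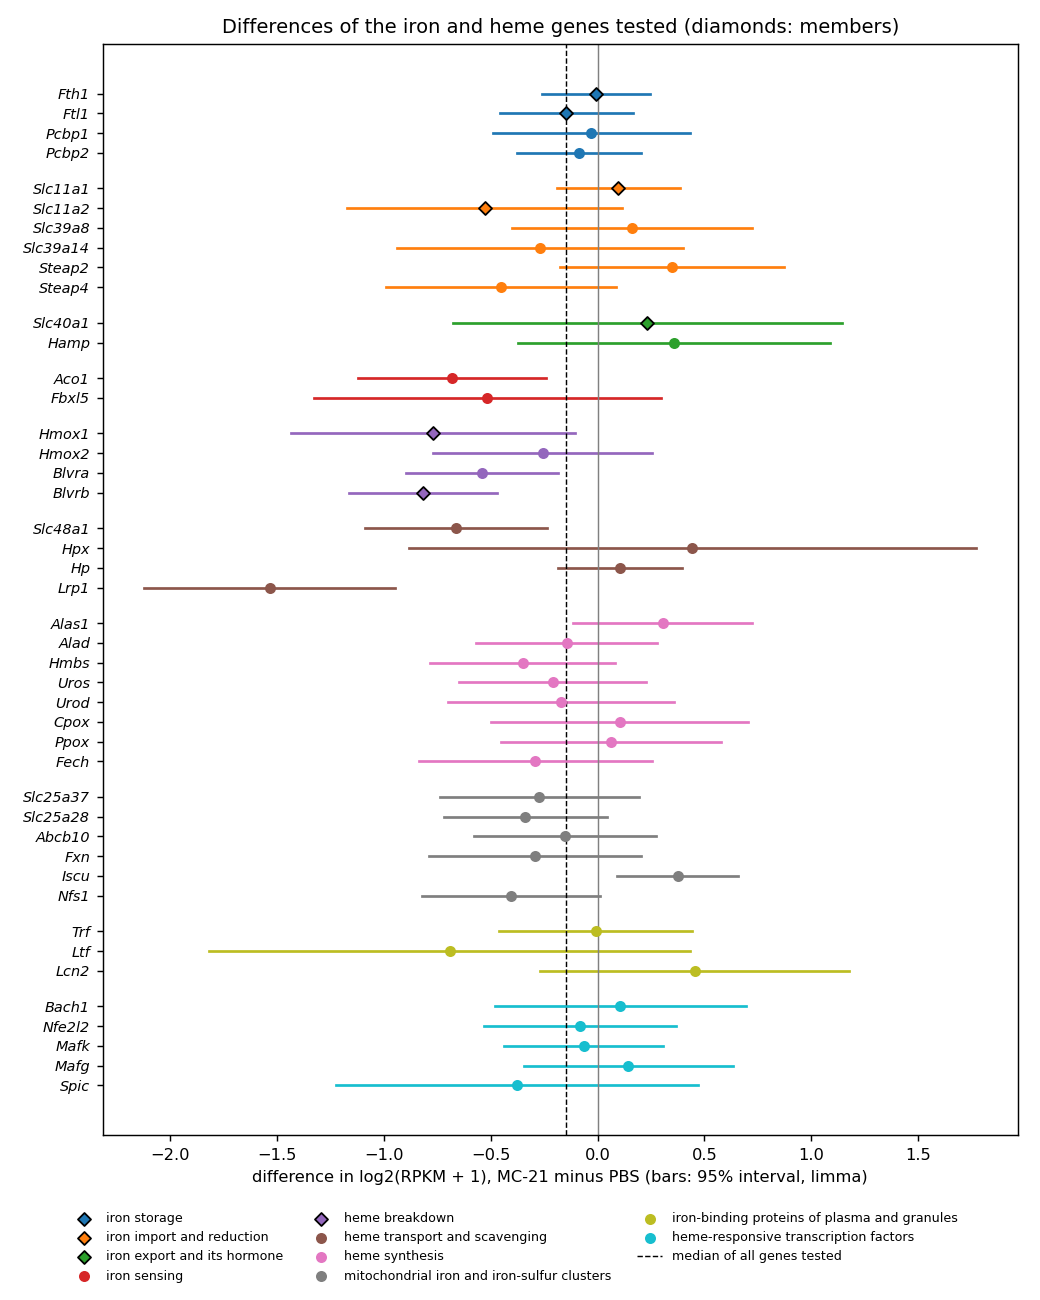
Difference in log2(RPKM + 1), MC-21 minus PBS (points), with its 95% interval from limma (bars) for the 44 iron and heme genes tested, grouped by role; diamonds are 7 of the 9 genes, the dashed line is the median of all genes tested (-0.15). The intervals of Hmox1, Blvra, Blvrb, Slc48a1, Lrp1 and Aco1 lie below 0 and that of Iscu above it, while Ftl1 lies at the dashed line and Fth1 close to 0.

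The pattern over libraries was widest for Hmox1, Slc40a1 and Slc11a2, with ranges of 1.79, 1.70 and 1.44 in log2(RPKM + 1). For each, the nearest genes were found by the mean absolute difference of log2(RPKM + 1) over the 7 libraries, after each gene was centred on its mean. Hmox1 was closest to Degs2 (0.13), Cx3cr1 (0.18) and Otud3 (0.18), which also peaked in PBS replicate 7. Cx3cr1, whose reporter is named in the sort gate, had 3.81 RPKM in that library and from 1.01 to 1.83 RPKM in PBS replicates 5, 6 and 8. The scale compresses the changes of such low genes. Degs2, Cx3cr1 and Otud3 had at most 3.60, 3.81 and 3.60 RPKM, where Hmox1 had 88.9 to 311 RPKM. A small distance from Hmox1 therefore does not mean an equal fold change. Slc40a1 was closest to 1600020E01Rik (0.15), Wsb1 (0.16) and Ahsg (0.17), a gene of hepatocyte secretion, all with their highest values in PBS replicate 6. The 8 hepatocyte markers also summed highest in PBS replicate 6, to 482 RPKM, against 215 to 365 RPKM in the other libraries. In MC-21 replicate 2, where Slc40a1 was also high, they summed to 295 RPKM, below MC-21 replicate 3 (365 RPKM) and PBS replicate 8 (334 RPKM). The part of hepatocyte genes in the level of Slc40a1 was not tested. Slc11a2 was closest to Tmem242 (0.07), Arl3 (0.10) and Chek2 (0.10), all lowest in MC-21 replicate 4.

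**Figure D4:**
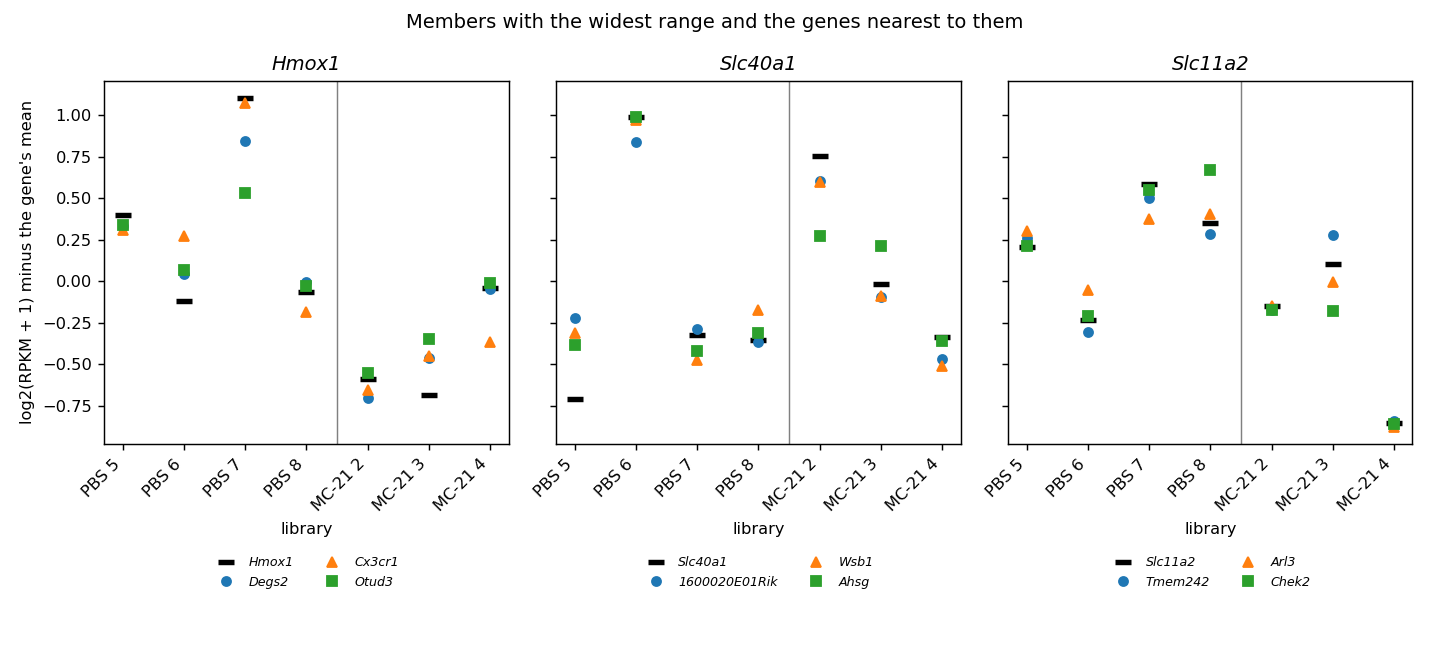
Log2(RPKM + 1) minus each gene's mean (vertical axis) in each library (horizontal axis; PBS left and MC-21 right of the line) for Hmox1, Slc40a1 and Slc11a2 (black bars) and the 3 genes nearest to each (coloured symbols). Hmox1 peaks in PBS replicate 7, Slc40a1 in PBS replicate 6 and MC-21 replicate 2, and Slc11a2 is lowest in MC-21 replicate 4, each together with its nearest genes.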

How the data were processed

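Neutrophil RNA of 7 livers was sequenced as 3′ libraries. The authors mapped reads to mm9 with HISAT 0.1.5, converted files with SAMtools and deposited RPKM values per gene from Partek Genomics Suite 6.6. The annotation, the handling of reads with several matches and strand are not given in the sources used here. All 7 value columns were matched to mice by their labels. The groups were compared with limma 3.58.1 (trend) in R 4.3.3 on log2(RPKM + 1), without further scaling. Single genes were also given a two-sided exact permutation test. Nothing says whether mice shared a cage or day, and p-values measure the spread between these mice. Depth came from the steps of low values in genes with 1 transcript. Coordinates and hairpins came from the annotation of the same build, and copies were sought with blastn 2.17.0. The fit was tested on simulated data.

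The genes, the wider list and the markers were chosen with earlier results of these data known. Named are the 9 genes, genes of the wider list with an unadjusted p under 0.05 or no overlap, and the most abundant gene of each role group. Hmox2, Hamp, Bach1 and the single markers were added for their roles after their values were seen. Ftmt, Flvcr1 and Flvcr2 were not analysed here. Alternatives were a pseudocount of 0.1, no filter, centring on medians, a filter at a mean of 5 RPKM, quantile normalization, no trend, an unmoderated test, and leaving out each library. Tables and plots were made with Python 3.11.15, pandas 2.3.3 and matplotlib 3.10.9.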

Additional observations from a re-analysis of the deposited data

Results flagged for a closer look

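Slc40a1 in PBS replicate 6 lay far from the other PBS libraries, at 18.6 RPKM against 5.03 to 6.90 RPKM. The gap to the next library was 0.862 of the group's range in RPKM, above Dixon's 95% limit for 4 libraries. On log2(RPKM + 1) the ratio was under that limit. The test was made on 14 genes on both scales, and chance passes the limit in about 1 in 20 groups.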

How the results depend on the processing

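The count of genes with an adjusted p under 0.05 was 60, but 6 without a filter and 4 with an unmoderated test, and between 9 (without PBS replicate 8) and 102 (without PBS replicate 6) when a library was left out. Of the 9 genes, 1 (Blvrb, log2 difference -0.82) was called with a mean of at least 5 RPKM, and 0 to 1 when a library was left out, where Blvrb lay between -0.91 and -0.75. An unadjusted p under 0.05 was reached by 1 in place of 2 of the genes with centred libraries and with the unmoderated test, and by 1 to 3 without a library (3 without PBS replicate 6, 1 without MC-21 replicate 2). In the wider list the adjusted count of 1 became 0 without a filter, with quantile normalization, with centred libraries and with the unmoderated test, 2 with a mean of at least 5 RPKM, and 0 to 1 without a library. The sign turned for Fth1 (0.16) and Ftl1 (0.018) with centred libraries, for Fth1 between -0.085 and 0.050 without a library, and for Slc40a1 between -0.079 and 0.59. The other 91 of 99 recomputed values of the 9 genes kept their sign and their side of the threshold. The causes were not tested. At 1591607 to 3961519 reads per library, Tfrc and Ireb2 rested on 0 to 20 reads per library, and without a filter their adjusted p-values were 0.53 and 0.619. No paired analysis was possible because the groups share no mouse numbers.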
